A study of Mus musculus with 9 samples.

Results

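The 39 genes described here are 24 genes that interferon is known to induce, 10 genes of the class I antigen presentation pathway and 5 genes of the class II pathway. They were taken as a named set, and the set was chosen with earlier results of these data known, although its rule names no measured value. Of the 39 genes, 35 were among the 22180 genes that had a probe set with a single gene symbol. Expression was measured on 9 Affymetrix arrays in kidney of male, 20-week-old mice on the C57BLKS/J background, with 3 arrays in each of 3 groups. Mice of the db/m group have a mutant leptin receptor allele (db) on 1 chromosome only and are lean; their treatment is not stated in the labels. Mice of the db/db group have it on both chromosomes, which makes them obese and diabetic, and they received saline by the labels. Mice of the third group, db/db+TSF, have the same genotype and received a herbal preparation of Chinese medicine, Tang-shen Formula (TSF), into the stomach each day (2.4 g/kg/day) over 12 weeks. The labels name kidney as the tissue and the series text names renal cortex. They put 9 mice in each db/db group and call every array a biological replicate, and whether an array held RNA of 1 mouse is not given, so p-values here measure the spread between these arrays. The study looked for genes through which TSF acts on the diabetic kidney. The groups are compared below in 3 pairs, the contrast of disease (db/db against db/m), that of treatment (db/db+TSF against db/db) and the one that differs in both (db/db+TSF against db/m).

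Interferons are secreted proteins that cells release when they sense viral or misplaced nucleic acid. Type I interferons act on their target genes through the interferon-stimulated response element (ISRE), which a complex with STAT2 and IRF9 binds, and interferon gamma acts through the gamma-activated site (GAS). Class I molecules are made by nearly all nucleated cells and show peptides cut by the proteasome, while class II molecules are made mainly by dendritic cells, macrophages and B cells and show peptides from material the cell has taken up. In the kidney, macrophages and dendritic cells between the tubules carry most of the class II protein, and tubular cells can make it when inflamed.

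Of the 39 members, 35 had a probe set of their own. Ifi44 had no probe set under its symbol, and Gbp2, H2-D1 and Cd74 lay only on probe sets shared with another gene, so these 4 have no value here. Mx1, an antiviral GTPase, averaged 2.27 ± 0.16 in db/m arrays, 2.23 ± 0.069 in db/db arrays and 2.21 ± 0.018 in db/db+TSF arrays (log2 intensity, mean ± SD, n = 3, as for all levels below). It lay under the floor of 2.65 that was set for a test, which left 34 members. The arrays carried the markers of kidney epithelium at high levels in all groups: Slc34a1, the proximal tubule phosphate transporter, measured between 12.12 and 12.27 on the log2 scale and Lrp2, megalin, between 10.99 and 11.29. Levels of different genes come from different probe sets and are not compared with each other.

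The promoters of the members show which of the known interferon elements sit next to each gene. RefSeq promoter windows of 300 bases around the annotated start (GRCm38.p6, a C57BL/6J reference, while these mice are C57BLKS/J) were available for 29 of the 39 members. The ISRE core was searched as GAAANNGAA, the GAS as TTCNNNGAA and the CCAAT box, which is part of many promoters including those of MHC genes, as CCAAT, each on both strands. The ISRE core stood in 13 of 19 interferon-induced members (68.4%), in 1 of 8 class I pathway members (B2m, 12.5%) and in 0 of 2 class II members, against 9.76% of all 27025 genes with a window. The GAS stood in 4 of 19 interferon-induced members (Bst2, Ifi35, Ifit2 and Irf1, 21.1%), in Psmb8 of the class I pathway, and in 9.55% of all genes; in Bst2 it overlapped an ISRE core. The CCAAT box stood in 6 of 19 interferon-induced members (31.6%), in 6 of 8 class I pathway members (75%), in both class II members and in 41.1% of all genes, and it overlapped neither of the other motifs in any member. The windows of 5 members are shown. Ifit2, H2-Eb1 and H2-Aa were planned for a small unadjusted p in db/db against db/m among members with a window. Oasl2, an interferon-induced member, was planned by the same rule, and its window holds 0 matches to each motif and is not printed. Isg15 and Ifit1 are shown, by a choice made after the search, from the 3 members with the most ISRE cores (Isg15, Ifit1 and Ifit3, with 3 each). Capitals mark the matches: a GAS and a CCAAT box in Ifit2, CCAAT boxes in H2-Eb1 and H2-Aa, and ISRE cores, some of which share bases, in Isg15 and Ifit1. The windows are chr19:34550444-34550743 (plus strand) for the first listed start of Ifit2, chr17:34305617-34305916 (plus strand) for H2-Eb1, chr17:34287774-34288073 (minus strand) for H2-Aa, chr4:156200769-156201068 (minus strand) for Isg15 and chr19:34640639-34640938 (plus strand) for Ifit1, each written 5′ to 3′ on the strand of its gene.
Ifit2: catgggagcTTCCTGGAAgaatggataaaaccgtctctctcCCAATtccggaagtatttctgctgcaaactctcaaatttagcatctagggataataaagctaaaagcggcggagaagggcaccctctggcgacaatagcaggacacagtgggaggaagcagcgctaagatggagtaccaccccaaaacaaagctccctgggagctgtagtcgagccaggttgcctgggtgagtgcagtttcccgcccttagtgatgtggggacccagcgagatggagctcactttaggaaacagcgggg
H2-Eb1: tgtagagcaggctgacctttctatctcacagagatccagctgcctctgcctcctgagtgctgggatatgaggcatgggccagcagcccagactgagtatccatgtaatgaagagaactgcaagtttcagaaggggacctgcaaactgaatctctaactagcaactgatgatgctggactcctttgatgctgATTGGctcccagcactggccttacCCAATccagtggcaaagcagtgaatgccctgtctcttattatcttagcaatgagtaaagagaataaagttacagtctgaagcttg
H2-Aa: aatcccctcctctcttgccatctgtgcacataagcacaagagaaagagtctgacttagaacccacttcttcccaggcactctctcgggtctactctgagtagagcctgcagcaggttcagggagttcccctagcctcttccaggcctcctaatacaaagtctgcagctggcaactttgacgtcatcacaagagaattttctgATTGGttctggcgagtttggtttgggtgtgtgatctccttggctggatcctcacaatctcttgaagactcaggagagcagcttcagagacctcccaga
Isg15: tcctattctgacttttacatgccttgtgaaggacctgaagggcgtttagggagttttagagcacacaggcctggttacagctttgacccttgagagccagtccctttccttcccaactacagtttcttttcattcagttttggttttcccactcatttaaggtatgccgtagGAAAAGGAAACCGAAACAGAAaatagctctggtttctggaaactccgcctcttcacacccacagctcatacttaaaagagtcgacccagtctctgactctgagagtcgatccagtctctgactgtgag
Ifit1: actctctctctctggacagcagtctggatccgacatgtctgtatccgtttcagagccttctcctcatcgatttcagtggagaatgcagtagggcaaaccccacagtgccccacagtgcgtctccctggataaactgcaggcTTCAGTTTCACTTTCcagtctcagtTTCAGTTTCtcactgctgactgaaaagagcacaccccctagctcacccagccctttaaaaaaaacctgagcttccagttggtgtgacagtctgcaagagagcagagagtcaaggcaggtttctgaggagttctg
Within the IFIT family, Ifit1 and Ifit3 hold 3 ISRE cores each while Ifit2 holds none in the window shown. A match is a run of letters and not a measured binding site, and a window without one says only that these letters are not in it.

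One array stood apart and touches all results on db/db mice. The array db/db replicate 3 had the lowest value of all 9 arrays for 21 of the 35 measured members and the highest for 0. These 21 were 15 of 22 interferon-induced members, 3 of 9 class I pathway members and 3 of 4 class II members. In the same array the neutrophil marker list, 11 measured genes, summed to 578.5 intensity units, against 92.2 to 104.8 in the other 8 arrays. S100a8, a calcium-binding protein of neutrophils, measured 6.10 on the log2 scale there and 2.16 to 2.54 elsewhere. The part of this neutrophil signal in the low member values was not tested. The median over the 35 members, each taken relative to its db/m mean, was -0.36 in that array, -0.004 in db/db replicate 1 and -0.035 in db/db replicate 2. Values without this array are given beside many of the db/db differences, and for all 34 tested members in the plot of their differences against db/m.

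**Figure D1:**
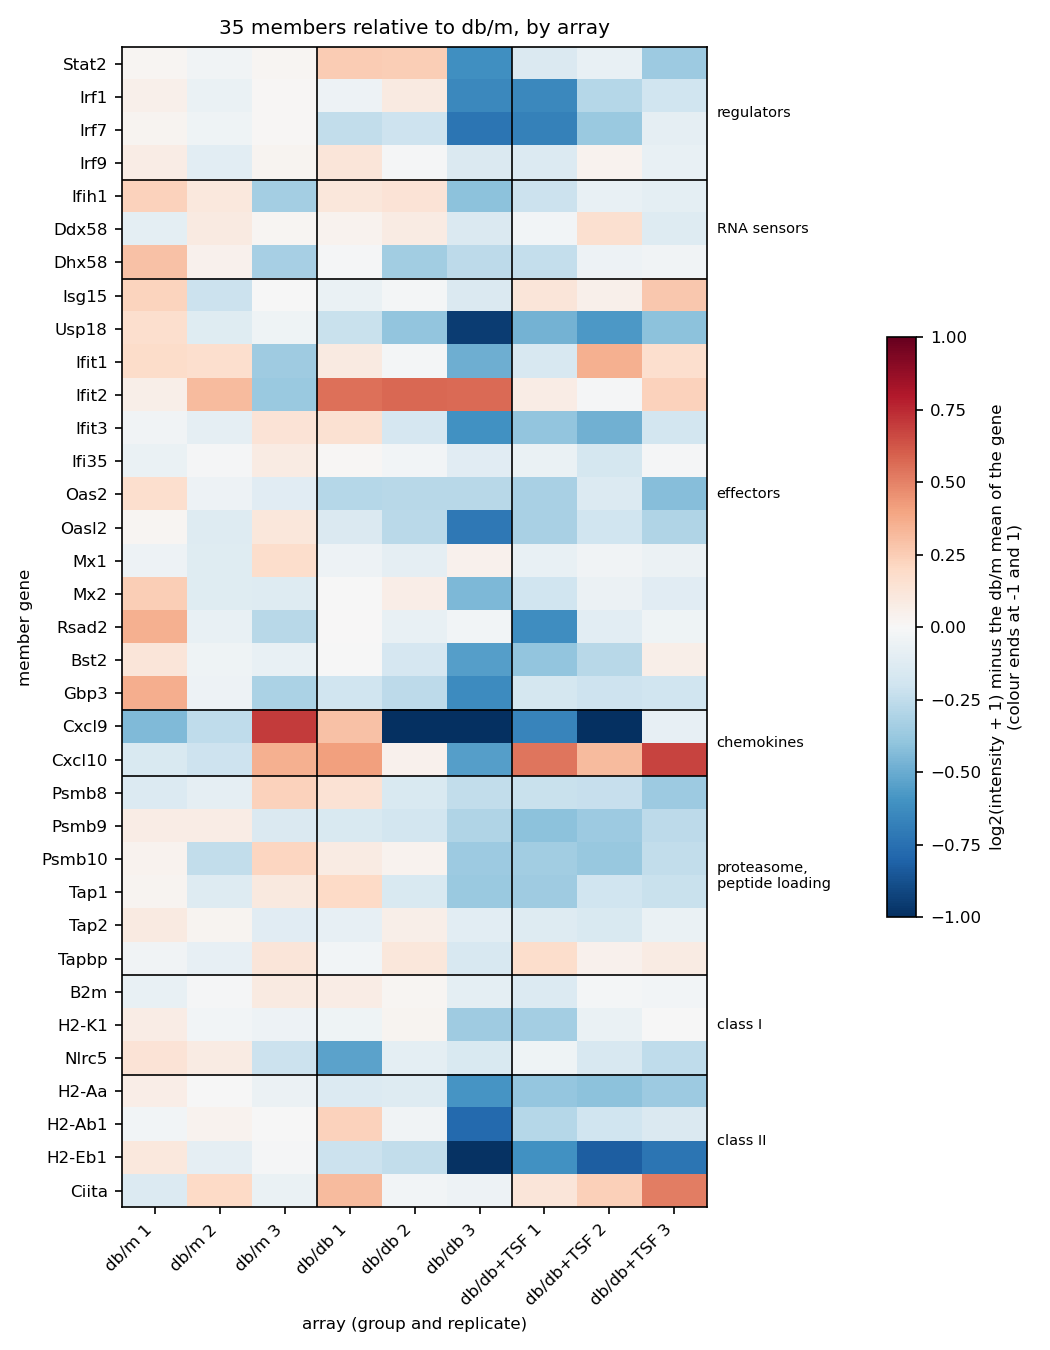
Heat map of the 35 measured members in the 9 arrays, by role, each value being log2(intensity + 1) minus the gene's db/m mean, with blue for lower and red for higher. The column of db/db replicate 3 is the lowest of all 9 arrays for 21 of the 35 members.

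The first comparison asked how the obese, diabetic kidney differed from the lean one. No member passed a limma adjusted p of 0.05 in db/db against db/m: 0 of 34 members were called, while 1.05% of all 17740 genes tested were (187 genes, 105 higher and 82 lower). Of the 34 members, 32 had a difference below 0 and 2 above it, Ifit2 and Ciita, and the median difference was -0.13 on the log2 scale. Over all genes 47.8% lay below 0 and the median was 0.01. At an unadjusted p under 0.05 there were 8 members lower and 1 higher, in a table where 13.9% of all genes passed that mark. The groups did not overlap for 7 members that were lower in db/db, where 8.28% of all genes did so, and for 1 that was higher, where 10.4% of all genes did so. The smallest adjusted p of any member was 0.107.

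Most of this downward tilt lay in 1 array. Without db/db replicate 3, 19 of the 34 members lay below 0 and 15 above, and the member median was -0.008. The groups then did not overlap for 7 members on the low side and 2 on the high side, Ifit2 and Stat2, against 12.4% and 15.4% of all genes. Other arrays moved these counts too, with 13 members not overlapping on the low side without db/db replicate 1 (11.8% of all genes) and 11 without db/m replicate 3 (13.4%). On the high side there were 2 without db/m replicate 1 (13.5% of all genes) or db/m replicate 2 (17.8%). With db/db replicate 3 left out, 0 members were called.

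Among the regulators, which carry the interferon signal to the nucleus or amplify it, all 4 had differences below 0 and none was called. Without db/db replicate 3 the db/db means of Stat2, Irf1 and Irf9 lay above their db/m means, and only Irf7 stayed below. Irf7, the factor that amplifies type I interferon production, measured 5.78, 5.72 and 5.77 in db/m arrays, 5.51, 5.55 and 5.03 in db/db arrays and 5.08, 5.39 and 5.67 in db/db+TSF arrays. The 3 db/m arrays lay within 0.068 of each other and above every other array. The db/db against db/m difference of Irf7 was -0.39 (SE 0.16, limma adjusted p = 0.314), and -0.23 without db/db replicate 3. Stat2, the type I signal transducer, measured 5.73, 5.68 and 5.73 in db/m arrays, 5.96, 5.96 and 5.10 in db/db arrays and 5.57, 5.64 and 5.35 in db/db+TSF arrays. Its first 2 db/db arrays were the highest of all 9 and its db/db replicate 3 the lowest, so the group mean hides opposite positions. Irf1, a factor induced by interferon gamma, averaged 5.80 ± 0.06 in db/m arrays, 5.59 ± 0.39 in db/db arrays and 5.42 ± 0.23 in db/db+TSF arrays. Irf9, the DNA-binding partner of STAT2, averaged 6.79 ± 0.091, 6.78 ± 0.14 and 6.74 ± 0.088 in the same order, and its groups overlapped.

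The 3 RNA sensors, which detect viral RNA in the cytoplasm, overlapped between groups and none was called. Ifih1, which encodes MDA5, averaged 6.11 ± 0.30 in db/m arrays, 6.06 ± 0.31 in db/db arrays and 5.98 ± 0.078 in db/db+TSF arrays. Ddx58, which encodes RIG-I, averaged 7.54 ± 0.095, 7.53 ± 0.12 and 7.54 ± 0.15, a difference between db/db and db/m of -0.011, or 0.057 without db/db replicate 3. Dhx58, which encodes LGP2, a modulator of both, averaged 4.22 ± 0.32, 4.01 ± 0.17 and 4.11 ± 0.11.

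The effectors, the proteins that act against viruses in the cell, gave the smallest p-values in both directions. Ifit2, which binds cellular and viral RNA and restrains translation, measured 4.39, 4.65 and 3.96 in db/m arrays, 4.89, 4.91 and 4.90 in db/db arrays and 4.41, 4.32 and 4.56 in db/db+TSF arrays. All 3 db/db arrays lay above all 6 others, and they lay within 0.022 of each other, including db/db replicate 3. The difference was 0.57 (SE 0.15, limma adjusted p = 0.107). It passed the threshold in 1 of 22 alternative fits, the one without db/m replicate 2 (0.72, limma adjusted p = 0.047). Over these fits the difference ranged from 0.34 to 0.72, and the adjusted p reached 0.289 in the test without moderation. Usp18, the protease that removes ISG15 and dampens the receptor, measured 6.48, 6.19 and 6.27 in db/m arrays, 6.09, 5.92 and 5.37 in db/db arrays and 5.84, 5.74 and 5.90 in db/db+TSF arrays. All db/m arrays lay above all others. The Usp18 difference was -0.52 (SE 0.16, limma adjusted p = 0.175), a 1.44-fold lower mean, and -0.31 without db/db replicate 3.

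The oligoadenylate synthetase family, which activates the RNA-cutting enzyme RNase L or resembles the proteins that do, had 2 members in the set. Oasl2 measured 6.48, 6.33 and 6.57 in db/m arrays, 6.31, 6.19 and 5.74 in db/db arrays and 6.13, 6.26 and 6.16 in db/db+TSF arrays, a db/db against db/m difference of -0.38 (SE 0.14, limma adjusted p = 0.247). Without db/db replicate 3 the Oasl2 difference was -0.21. Oas2 measured 4.24, 4.02 and 3.96 in db/m arrays, 3.79, 3.80 and 3.80 in db/db arrays and 3.75, 3.94 and 3.65 in db/db+TSF arrays. Its difference was -0.28 (SE 0.11, limma adjusted p = 0.268), and unlike Oasl2 its db/db replicate 3 was level with the other db/db arrays. For both genes every db/m array lay above every db/db and db/db+TSF array.

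The remaining effectors overlapped between db/db and db/m. Isg15, the ubiquitin-like modifier, averaged 2.97 ± 0.22 in db/m arrays, 2.89 ± 0.064 in db/db arrays and 3.12 ± 0.11 in db/db+TSF arrays. Ifit1, a sensor of RNA caps, averaged 5.26 ± 0.31, 5.12 ± 0.31 and 5.38 ± 0.26. Ifit3, a partner of other IFIT proteins, averaged 5.16 ± 0.12, 4.95 ± 0.38 and 4.81 ± 0.16. Of these IFIT genes only Ifit2 had a db/db mean above the db/m mean, and without db/db replicate 3 Ifit1 did as well. Ifi35, an interferon-induced leucine zipper protein, averaged 6.12 ± 0.074, 6.08 ± 0.064 and 6.04 ± 0.086. Mx2, another antiviral GTPase, averaged 2.80 ± 0.21, 2.67 ± 0.28 and 2.68 ± 0.069. Rsad2, which encodes viperin, averaged 6.60 ± 0.32, 6.57 ± 0.039 and 6.35 ± 0.32. The largest db/db against db/m difference among these 3 was that of Mx2, -0.13, which was 0.031 without db/db replicate 3. Bst2, which encodes tetherin and holds budding viruses at the membrane, averaged 4.09 ± 0.11, 3.85 ± 0.28 and 3.89 ± 0.23. Gbp3, a guanylate-binding protein, averaged 3.64 ± 0.34, 3.28 ± 0.23 and 3.45 ± 0.018, with 1 db/m array at 4.01 above the rest.

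The 2 chemokines draw T cells and NK cells through the receptor CXCR3, and Cxcl9 had the widest spread of all measured members within each group. Cxcl9, induced mainly by interferon gamma, measured 5.43, 5.62 and 6.57 in db/m arrays, 6.17, 4.51 and 4.19 in db/db arrays and 5.22, 4.71 and 5.79 in db/db+TSF arrays. Its db/db values spanned 1.98, from the second highest of all 9 arrays to the lowest, so the groups overlapped. The Cxcl9 difference had the largest size of any member in this comparison, -0.92, with an SE of 0.47 (limma adjusted p = 0.415). It was -0.54 without db/db replicate 3. Cxcl10 measured 5.66, 5.61 and 6.17 in db/m arrays, 6.23, 5.86 and 5.26 in db/db arrays and 6.35, 6.13 and 6.49 in db/db+TSF arrays, and its db/db and db/m means differed by -0.032, or by 0.23 without db/db replicate 3.

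**Figure D2:**
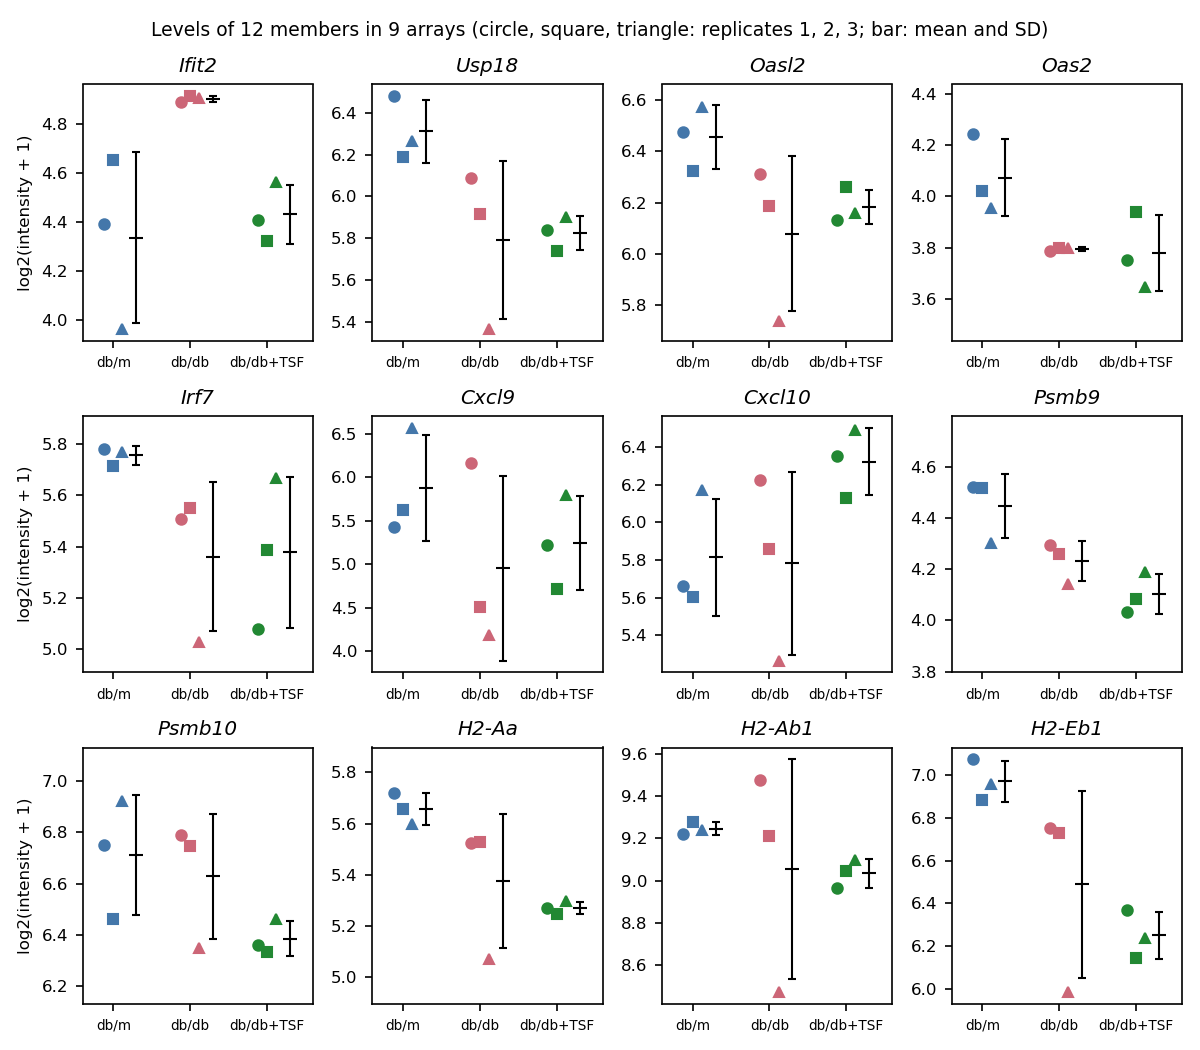
Levels of 12 members as log2(intensity + 1) in db/m, db/db and db/db+TSF, each point an array, with the group mean and SD. All 3 db/db arrays of Ifit2 lie above the other 6 arrays, and db/db replicate 3 lies lowest of 9 for H2-Eb1 and Usp18.

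In the class I pathway all 9 tested members had db/db means below the db/m means, by small amounts, and none was called. Without db/db replicate 3 the db/db means of Psmb10, Tap1, Tapbp and B2m lay above their db/m means. Psmb9, a catalytic subunit of the immunoproteasome that interferon gamma switches in, measured 4.52, 4.52 and 4.30 in db/m arrays, 4.29, 4.26 and 4.14 in db/db arrays and 4.03, 4.09 and 4.19 in db/db+TSF arrays. Every db/m array lay above every db/db array, by as little as 0.01, and the difference was -0.21 (SE 0.096, limma adjusted p = 0.351). The other immunoproteasome subunits overlapped: Psmb8 averaged 4.77 ± 0.20 in db/m arrays, 4.69 ± 0.20 in db/db arrays and 4.50 ± 0.078 in db/db+TSF arrays. Psmb10 averaged 6.71 ± 0.23, 6.63 ± 0.24 and 6.39 ± 0.068. Tap1 and Tap2 form the transporter that moves peptides into the endoplasmic reticulum. Tap1 averaged 5.54 ± 0.12, 5.43 ± 0.29 and 5.29 ± 0.085, and Tap2 averaged 5.13 ± 0.11, 5.09 ± 0.09 and 5.02 ± 0.044. Tapbp, tapasin, which holds the transporter to the class I molecule, averaged 7.84 ± 0.11, 7.81 ± 0.14 and 7.94 ± 0.066. B2m, the light chain of every class I molecule, had the smallest difference of all members and measured 11.80, 11.85 and 11.96 in db/m arrays, 11.95, 11.89 and 11.77 in db/db arrays and 11.73, 11.85 and 11.85 in db/db+TSF arrays. Its db/db against db/m difference was -0.001 with an SE of 0.09, and 0.048 without db/db replicate 3. H2-K1, a classical heavy chain, averaged 7.32 ± 0.069 in db/m arrays, 7.20 ± 0.20 in db/db arrays and 7.19 ± 0.18 in db/db+TSF arrays. Nlrc5, the transactivator of class I genes, averaged 3.71 ± 0.19, 3.45 ± 0.24 and 3.56 ± 0.11, and its groups overlapped.

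In the class II pathway the 3 chain genes had db/db means below the db/m means and the transactivator did not. H2-Eb1, the beta chain of the I-E molecule, measured 7.08, 6.88 and 6.96 in db/m arrays, 6.75, 6.73 and 5.98 in db/db arrays and 6.37, 6.14 and 6.24 in db/db+TSF arrays. Every db/m array lay above every array of the other groups, and db/db replicate 3 was the lowest of all. The db/db against db/m difference of H2-Eb1 was -0.48 (SE 0.18, limma adjusted p = 0.249), and -0.23 without db/db replicate 3. H2-Aa, the alpha chain of I-A, measured 5.72, 5.66 and 5.60 in db/m arrays, 5.52, 5.53 and 5.07 in db/db arrays and 5.27, 5.25 and 5.30 in db/db+TSF arrays. The groups db/db and db/m did not overlap, and the difference of -0.28 (SE 0.12, limma adjusted p = 0.332) was -0.13 without db/db replicate 3. H2-Ab1, the beta chain of I-A, measured 9.22, 9.28 and 9.24 in db/m arrays, 9.48, 9.21 and 8.47 in db/db arrays and 8.96, 9.04 and 9.10 in db/db+TSF arrays. Its db/db arrays held both the highest and the lowest value of all 9, and its difference turned from -0.19 to 0.098 without db/db replicate 3. Ciita, the transactivator of class II genes, averaged 4.83 ± 0.18 in db/m arrays, 4.91 ± 0.21 in db/db arrays and 5.13 ± 0.20 in db/db+TSF arrays.

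**Figure D3:**
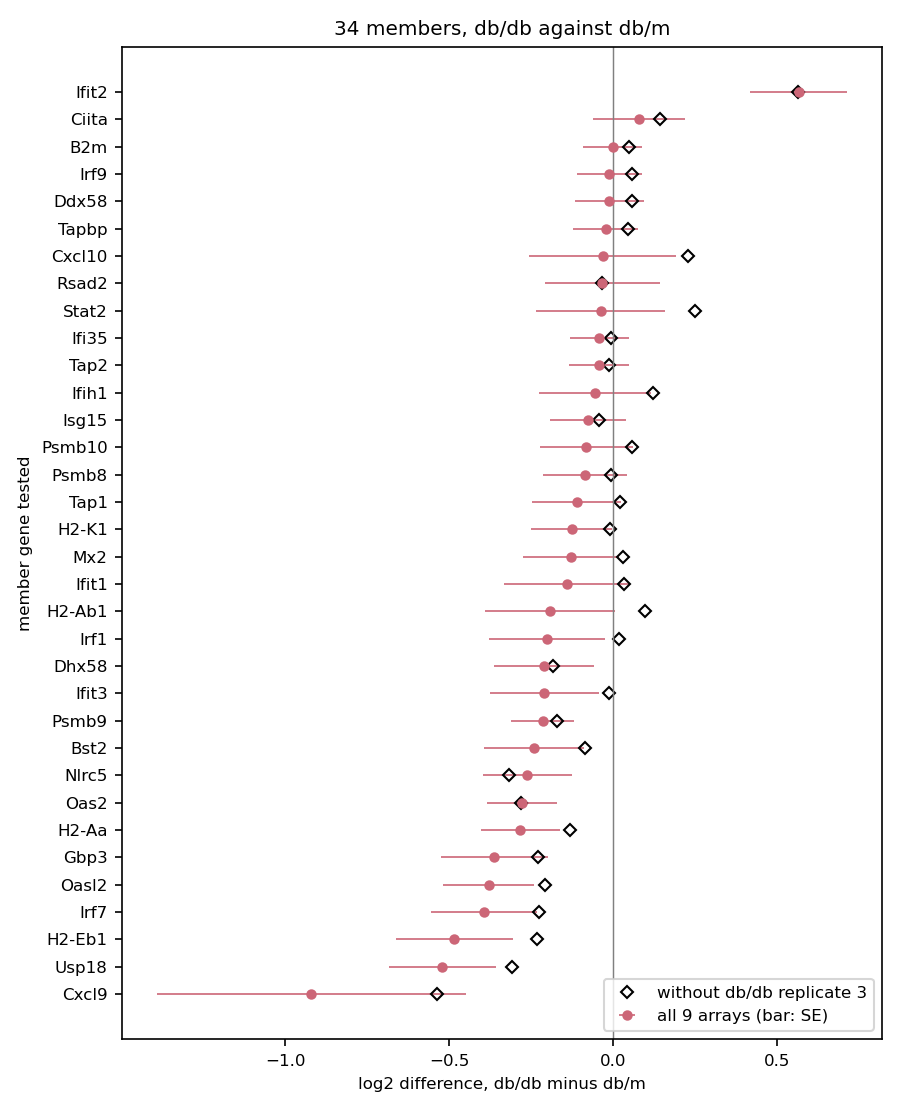
Differences of the 34 tested members in db/db against db/m on the log2 scale, with bars for the SE over all 9 arrays and open diamonds for the difference without db/db replicate 3. With all arrays 32 members lie below 0, and without db/db replicate 3 there are 19.

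The second comparison asked how treated db/db mice differed from untreated ones. No gene at all was called here (db/db+TSF against db/db). In this comparison 0 of 34 members and 0% of the 17740 genes had a limma adjusted p under 0.05, while 2 members and 11.7% of all genes had an unadjusted p under 0.05. Of the members 19 lay below 0 and 15 above, with a median of -0.017 beside -0.024 over all genes. The groups did not overlap for 1 member on the low side, Ifit2, where 12.3% of all genes did so, and for 1 on the high side, Isg15, where 7.81% of all genes did so.

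Ifit2 had the smallest p of the members here as well. Its 3 treated arrays lay below its 3 db/db arrays and within the range of the db/m arrays, a difference of -0.47 (SE 0.15, limma adjusted p = 0.298). This comparison uses the same db/db arrays as the first, so a high db/db mean enters both with opposite sign. Isg15 measured 2.91, 2.95 and 2.82 in db/db and 3.09, 3.02 and 3.24 in db/db+TSF, a difference of 0.23 (SE 0.12, limma adjusted p = 0.466). The 2 groups were separated by 0.075, less than the spread of 0.43 among the db/m arrays of the gene. Cxcl10 had the largest difference, 0.54 (SE 0.22, limma adjusted p = 0.394). Its treated arrays lay above 2 of the 3 db/db arrays, and db/db replicate 1 lay within their range. Without db/db replicate 3 the Cxcl10 difference was 0.28. Ifit1 differed by 0.26 (SE 0.19, limma adjusted p = 0.617) and Ciita by 0.21 (SE 0.14, limma adjusted p = 0.578), and both overlapped between the groups. The Ifit1 difference was 0.089 without db/db replicate 3.

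The immunoproteasome subunits all had lower means in treated than in untreated db/db mice, and none passed. Psmb10 differed by -0.24 (SE 0.14, limma adjusted p = 0.523), and by -0.38 without db/db replicate 3. Psmb8 differed by -0.19 (SE 0.13, limma adjusted p = 0.598), and Psmb9 by -0.13 (SE 0.096, limma adjusted p = 0.625). In all 3 genes the low db/db replicate 3 lay among the treated arrays, so the groups overlapped.

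The treatment comparison also turned on db/db replicate 3. Without it 26 of 34 members lay below 0, the member median was -0.12, and the groups did not overlap for 15 members on the low side, where 20.1% of all genes did so. Without db/db+TSF replicate 3 that count was 4 (16.1% of all genes), and it was 2 without db/db+TSF replicate 2 (16.1%) or db/db replicate 2 (17%). On the high side it was 6 without db/db replicate 1 (12.2% of all genes), and 2 without db/db replicate 2 (12.3%), db/db+TSF replicate 1 (13.8%) or db/db+TSF replicate 2 (11.5%). None of these fits called a member.

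The third comparison set treated db/db mice against lean mice and does not use the array that stood apart except for the estimate of spread. No member was called in db/db+TSF against db/m, while 3.13% of all genes were (556 genes, 216 higher and 340 lower). The members lay mostly below 0, 28 of 34, with a median of -0.20 beside 0 over all genes. At an unadjusted p under 0.05 there were 7 members lower and 1 higher, where 17.2% of all genes passed. The groups did not overlap for 13 members, all lower in db/db+TSF, where 12.4% of all genes did so. On the high side 0 members and 9.76% of all genes did so. The 13 were the regulators Stat2, Irf1 and Irf7, the effectors Usp18, Ifit3, Oas2 and Oasl2, the class I pathway genes Psmb8, Psmb9 and Tap1, and the class II chains H2-Aa, H2-Ab1 and H2-Eb1. All 3 measured class II chains were thus among them, and none of the 3 RNA sensors, 2 chemokines or 3 MHC class I genes. With each array left out in turn the count was 13 to 19 on the low side, where 12.4% to 19.4% of all genes did so, and 0 to 2 on the high side, where 9.76% to 17.1% did so.

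H2-Eb1 had the smallest p of all members, a difference of -0.72 (SE 0.18, limma adjusted p = 0.0549), or a mean 1.65-fold lower. Its lowest db/m array and its highest treated array were 0.52 apart on the log2 scale. The gene passed in 7 of 22 alternative fits, with limma adjusted p from 0.00408 without db/db replicate 3 to 0.208 without moderation. H2-Aa differed by -0.39 (SE 0.12, limma adjusted p = 0.125), with its treated arrays within 0.049 of each other. Psmb9 differed by -0.34 (SE 0.096, limma adjusted p = 0.0863). It passed in 2 of 22 alternative fits, with array weights (limma adjusted p = 0.0424) and without db/m replicate 3 (limma adjusted p = 0.0498). Its limma adjusted p reached 0.231 without db/db+TSF replicate 2. Psmb10 differed by -0.32 (SE 0.14, limma adjusted p = 0.27), and 1 treated array overlapped the db/m range.

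Among the interferon-induced members the same comparison had the Usp18 difference at -0.49 (SE 0.16, limma adjusted p = 0.15). Oas2 differed by -0.29 (SE 0.11, limma adjusted p = 0.181), and Irf7 by -0.38 (SE 0.16, limma adjusted p = 0.265). In untreated db/db mice, measured against the same db/m arrays, the differences were -0.52 for Usp18, -0.28 for Oas2 and -0.39 for Irf7. Without db/db replicate 3 these were -0.31, -0.28 and -0.23. The db/db+TSF against db/db differences of the same genes over all arrays were 0.036, -0.016 and 0.017. Without db/db replicate 3 those of Usp18 and Irf7 turned below 0. Cxcl10 ran the other way in db/db+TSF against db/m, at 0.51 (SE 0.22, limma adjusted p = 0.272). Without db/db replicate 3, which enters only through the spread, 3 members passed at unchanged differences: H2-Eb1, H2-Aa (adjusted p = 0.0391) and Usp18 (adjusted p = 0.039).

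Set side by side, the interferon-induced and MHC genes had medians on the same side of 0 against db/m. In the treatment comparison the sign of the interferon-induced median depended on the settings. In db/db against db/m the median log2 difference was -0.14 over 21 interferon-induced members, -0.086 over 9 class I pathway members and -0.24 over 4 class II members. Without db/db replicate 3 these medians were -0.011, -0.005 and -0.017. Treated db/db against lean mice gave -0.20, -0.15 and -0.30, or -0.079, -0.096 and -0.29 without db/m replicate 1. The treatment comparison gave 0.01, -0.073 and -0.061, beside -0.024 over all genes. There 12 of 21 interferon-induced members lay above 0, and 7 of 9 class I and 3 of 4 class II members lay below it. Of all genes 56.1% lay below 0. Without db/db replicate 3 the treatment medians were -0.11, -0.13 and -0.28, so the interferon-induced median did not keep its sign. It was also below 0 with arrays shifted to the same median (-0.05), array weights (-0.023) or a filter at the 50th percentile (-0.003). The other settings that used all 9 arrays left it above 0. Without db/db replicate 1 the class II median was 0.082. The differences between the classes were not tested, and a class of 4 genes rests on few probe sets.

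By array, the class II median relative to db/m was -0.34, -0.31 and -0.26 in db/db+TSF and 0.049, -0.082 and -0.68 in db/db. The class I pathway median was -0.23, -0.16 and -0.22 in db/db+TSF and -0.026, 0.019 and -0.25 in db/db. The interferon-induced median was -0.21, -0.091 and -0.084 in db/db+TSF and 0.001, -0.049 and -0.47 in db/db. In each class the 3 treated arrays lay below all 3 db/m arrays, which spanned -0.058 to 0.086, and below the first 2 db/db arrays. The third db/db array lay below them all. Over all genes tested the median of an array lay between -0.026 and 0.020.

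**Figure D4:**
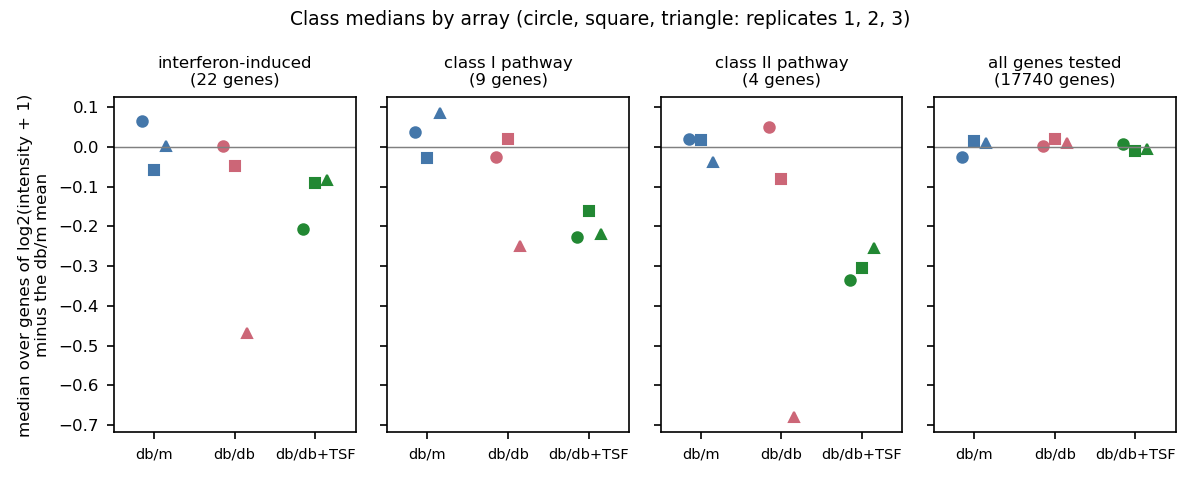
Median by array over the measured members of each class, as log2(intensity + 1) minus the db/m mean of each gene, for the 3 groups. In every class db/db replicate 3 is the lowest point, at -0.68 for the class II pathway, and the db/db+TSF arrays lie below the db/m arrays.

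The other genes of the pathway, 114 entries in 7 lists of ligands, receptors and kinases, nucleic acid sensors, brakes on the signal and further target genes, were measured at 101 and tested at 90. In db/db against db/m 1 of the 90 fell and 0 rose, where 1.05% of all genes were called. Of the 90, 51 lay below 0 (56.7%), beside 47.8% of all genes. The largest list, 30 further interferon-induced genes, had 20 of them below 0, and 12 without db/db replicate 3. Between treated and untreated db/db mice 0 were called, as of all genes, and 3 genes on the high side and 6 on the low side of the 90 had an unadjusted p under 0.05, where 11.7% of all genes did. Between treated db/db and lean mice 2 fell and 0 rose, where 3.13% of all genes were called.

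The gene that fell in both comparisons with db/m was Ccl5, a chemokine made by T cells and NK cells and induced by interferon in other cells. It measured 6.32, 6.45 and 6.63 in db/m arrays, 5.26, 5.61 and 5.05 in db/db arrays and 5.52, 5.39 and 5.37 in db/db+TSF arrays. The 6 db/db and db/db+TSF arrays all lay below the 3 db/m arrays. Ccl5 fell by 1.16 in db/db (SE 0.14, limma adjusted p = 0.00335) and by 1.04 in db/db+TSF (limma adjusted p = 0.00344), both against db/m, and it passed with every array left out in turn but not in a test without moderation (adjusted p = 0.0937 and 0.0733). Ctss, the protease that trims the invariant chain from class II molecules, fell by 0.45 in db/db+TSF against db/m (SE 0.10, limma adjusted p = 0.0441). It measured 6.38, 6.29 and 6.23 in db/m arrays, 5.89, 6.24 and 6.10 in db/db arrays and 5.77, 5.89 and 5.89 in db/db+TSF arrays. The call of Ctss was lost without any one of the 3 db/m arrays, the 3 treated arrays or db/db replicate 3, with adjusted p up to 0.135. It was also lost in the test without moderation.

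Of the ligands 9 had a probe set and 5 passed the floor, and none was called. Ifnb1, interferon beta, lay under the floor at 2.09 ± 0.22 in db/m arrays, 2.18 ± 0.092 in db/db arrays and 2.04 ± 0.055 in db/db+TSF arrays. Ifng, interferon gamma, averaged 3.31 ± 0.11 in lean and 3.10 ± 0.092 in db/db arrays, a difference of -0.21 (limma adjusted p = 0.363). Ifnl2, a lambda interferon, measured 6.59, 6.51 and 6.42 in db/m arrays, 6.12, 6.08 and 6.32 in db/db arrays and 6.40, 6.57 and 6.52 in db/db+TSF arrays. Its db/db arrays lay below both other groups, with differences of -0.34 against db/m (limma adjusted p = 0.142) and 0.32 for db/db+TSF against db/db (limma adjusted p = 0.284). Ifna1, an alpha interferon, had a treatment difference of 0.46 (limma adjusted p = 0.324). Of 9 receptor and kinase genes tested none was called in any comparison, with differences in db/db against db/m between -0.16 (Jak1, a receptor-bound kinase) and 0.24 (Il10rb, a chain of the lambda receptor).

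Of 11 nucleic acid sensing genes tested, Tlr3, the endosomal receptor of double-stranded RNA, differed by 0.32 in db/db against db/m (limma adjusted p = 0.172), and Zbp1, a sensor of Z-form nucleic acid, by -0.41 (limma adjusted p = 0.211), or -0.25 without db/db replicate 3. Sting1, the adaptor of the cytoplasmic DNA sensor, measured 4.71, 4.94 and 4.87 in db/db and 4.53, 4.08 and 4.32 in db/db+TSF. The treated arrays lay below the untreated, a difference of -0.53 (SE 0.13, limma adjusted p = 0.245), and none of the 11 was called. Of 8 genes that brake the signal, 0 were called, and the smallest p in db/db against db/m belonged to Ptpn2, a phosphatase of the JAK kinases (0.20, limma adjusted p = 0.424). Of 30 further interferon-induced genes tested 20 lay below 0 in db/db against db/m (66.7%, beside 47.8% of all genes), and Ccl5 alone was called. Without db/db replicate 3, 12 of the 30 lay below 0, beside 47.5% of all genes. Ifi205, a gene of the interferon-induced p200 family, differed by -0.98 (SE 0.26, limma adjusted p = 0.111). Among 12 further class I genes and 15 further class II genes none was called in db/db against db/m. H2-Ea, the alpha chain that pairs with H2-Eb1, had a difference of -0.38 there (limma adjusted p = 0.347), and -0.16 without db/db replicate 3.

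Markers of immune cells differed between the same groups. In whole tissue, fewer cells of a type and less RNA per cell cannot be told apart. Summed over 17 macrophage and dendritic cell genes, the intensity was 915.1 to 957.9 in db/m arrays, 766.2 to 911.5 in db/db arrays and 662.4 to 756.9 in db/db+TSF arrays, with no overlap between any 2 groups. That order is of sums, which bright genes carry: the list's median relative to db/m lay between -0.24 and -0.15 in db/db and between -0.27 and -0.20 in db/db+TSF, which overlap. For 5 pan-leukocyte genes the sum was 165.7 to 177.7 in db/m arrays, 140 to 173.5 in db/db arrays and 99.8 to 141.8 in db/db+TSF arrays. The T and NK cell sum over 10 genes was 147 to 199.9 in db/m arrays, 103.6 to 119.7 in db/db arrays and 105.8 to 124.2 in db/db+TSF arrays. The db/m arrays thus stood above both other groups in the T and NK cell list. The B and plasma cell sum over 6 genes was 86.9 to 128.7, 82.2 to 85.7 and 68 to 93.3 in the same order. No marker gene is listed at 0.

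Cd3e, a chain of the T cell receptor complex, fell by 0.78 in db/db against db/m (limma adjusted p = 0.0239). It was the 1 called gene of 8 T and NK cell genes tested, and all 8 lay below 0. Over all genes 1.05% were called in that comparison and 47.8% lay below 0. Leaving out db/m replicate 1, db/db replicate 1 or db/db replicate 3 ended the call of Cd3e, with limma adjusted p of 0.0688, 0.0951 and 0.09. The test without moderation ended it too (adjusted p = 0.163). In db/db+TSF against db/m 3 of 8 T and NK cell genes fell, among them Cd3g (-0.92, limma adjusted p = 0.0168). Of 17 macrophage and dendritic cell genes 5 fell there, among them Adgre1, the macrophage marker F4/80 (-0.56, limma adjusted p = 0.0239). Over all genes 3.13% were called in db/db+TSF against db/m, in either direction, and 50% lay below 0. The T and NK cell count was 0 without db/m replicate 1, db/m replicate 2, db/db+TSF replicate 2 or db/db+TSF replicate 3, and 1 to 3 with any other array left out. The macrophage and dendritic cell count was 0 without db/m replicate 1, db/m replicate 2 or db/db+TSF replicate 3, 1 without db/m replicate 3 or db/db+TSF replicate 2, and 3 to 6 with any other array left out. Of the pan-leukocyte genes Laptm5, a lysosomal protein of blood cells, fell by 0.55 (limma adjusted p = 0.016), and all 5 lay below 0. Leaving out db/m replicate 1 or db/db+TSF replicate 2 ended the call of Laptm5. In the test without moderation the db/db+TSF against db/m calls of Laptm5, Cd3g and Adgre1 were lost (adjusted p = 0.0799, 0.133 and 0.108). No marker gene of any list was called between treated and untreated db/db mice, as no gene was. The class II chain genes and the macrophage list were both lower in db/db+TSF than in db/m arrays, and the part of the leukocyte markers in the member differences was not tested. In db/db replicate 3, where H2-Aa, H2-Ab1 and H2-Eb1 were lowest, the macrophage list summed to 911.5. Its median relative to db/m was -0.17, between those of the other db/db arrays. The neutrophil list summed to 578.5 in that array, and whether neutrophils add to the macrophage or pan-leukocyte sums was not tested. In the kidney epithelium list 7 of its 8 genes lay above 0 in db/db against db/m, with a median of 0.25 and 0 called. The median over all genes was 0.01, and 47.8% of them lay below 0. The sum of the epithelium list was 14884 to 15273.6 in db/m arrays, 16256 to 16589.3 in db/db arrays and 15629.3 to 16556.3 in db/db+TSF arrays. The part of this list in the member differences was not tested.

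**Figure D5:**
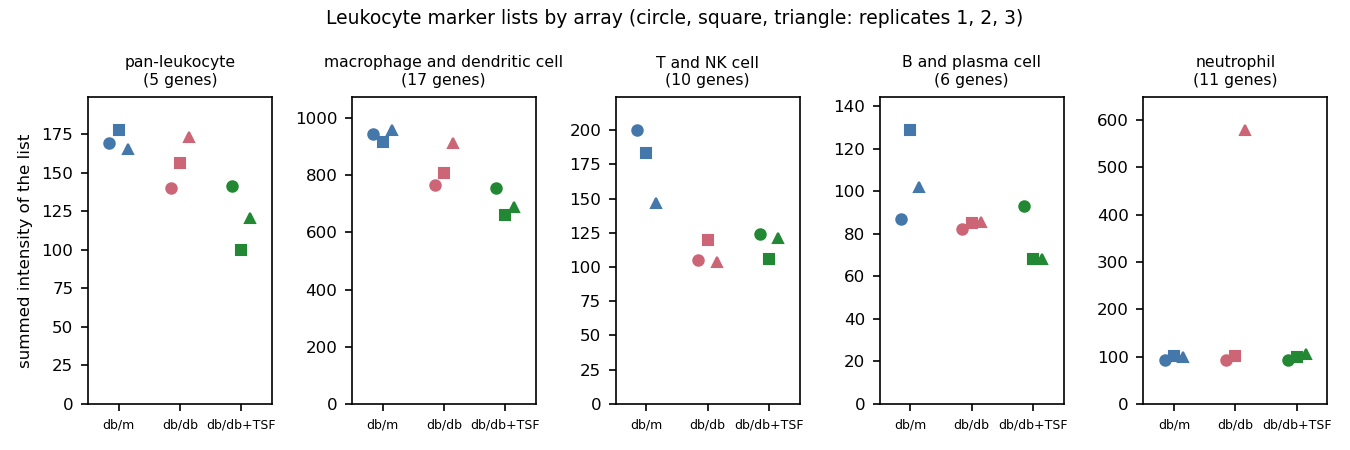
Summed intensity of 5 leukocyte marker lists by array in db/m, db/db and db/db+TSF, on axes that start at 0, each point an array. The macrophage and dendritic cell sums lie at 915.1 to 957.9 in db/m and at 662.4 to 756.9 in db/db+TSF, and the neutrophil list is high in db/db replicate 3 alone, at 578.5.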

How the data were processed

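RNA of 9 kidney samples was hybridised to Affymetrix arrays. The deposited values are intensity values on a linear scale, 1 per probe set and array. Per the submitters' processing notes, Affymetrix Expression Console and Transcriptome Analysis Console were used; versions, background correction and normalization are not given in the sources used. Array medians lay between 10.28 and 11.2, and no arrays were copies of each other (3 to 70 identical values per pair). The number of arrays limits the precision.

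Gene symbols came from the platform annotation: of 41345, 23521 had 1 symbol, 1814 had several and the others are unnamed here. The brightest probe set stood for its gene (22180 genes). Intensities were taken as log2(value + 1), so differences understate the change of dim genes. Genes with a mean above the 30th percentile of all probe sets (2.65) were tested, 17740 in all.

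limma 3.58.1 in R 4.3.3 was fitted with lmFit and eBayes to all 9 arrays and all genes, with 1 mean per group. Called means a Benjamini-Hochberg adjusted p under 0.05 over the genes tested. The fit was tested on simulated data. Differences are given for members that passed, and otherwise for the 8 of smallest p per comparison; Cxcl9, Stat2 and other members named with a difference beyond these were chosen after their values were seen. For the pathway and marker lists, genes that passed and up to 2 of smallest p per list were named. The members and lists were chosen with earlier results of these data known. Same-numbered arrays were checked for pairing: their deviations correlated from -0.079 to 0.146, so the numbers were not taken as pairs. Alternatives covered the filter, probe set, pseudocount, scaling, variance model, weights, arrays in the fit, replicate block, threshold and each array left out.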

Additional observations from a re-analysis of the deposited data

How the results depend on the processing

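The 3 arrays per group limit every comparison, and without detection calls dim probe sets may hold background only. None of the genes named by the rule changed direction in the alternatives run, while some other members and class medians near 0 did. The number of all genes called in db/db against db/m was 26 without moderation and 442 at a threshold of 0.1, and 72 to 194 with 1 array left out. For treated db/db against lean mice (db/db+TSF against db/m) it was 73 without moderation and 1012 at a threshold of 0.1, and 213 to 563 with 1 array left out. The members called in db/db+TSF against db/m numbered 1 with a filter at the 50th percentile, with arrays shifted to the same median, with an intensity trend, with robust eBayes or with only the 6 arrays compared, 2 with array weights or a threshold of 0.1, and 0 to 3 with 1 array left out; in db/db against db/m they numbered 0 to 1. The members below 0 in db/db against db/m ranged from 19 to 33 with 1 array left out. The class I median in that comparison ranged from -0.163 to -0.005 and the class II median from -0.381 to -0.017, and the class II median in db/db+TSF against db/db from -0.282 to 0.082, in each case with the end nearest 0, or lowest in the last, without db/db replicate 3. The causes of these shifts were not tested.

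With the replicate number as a block, 137 genes were called in db/db against db/m, 0 in db/db+TSF against db/db and 434 in db/db+TSF against db/m, and 0 members in each. Of the 9 arrays, 3 correlated best with their own number, so the labels' numbers were not treated as a pairing.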
